A study of Taeniopygia guttata with 23 samples.

Results

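H3K9me3, the trimethylated form of lysine 9 on histone H3, was compared between the auditory forebrain of Isolate and Tutored male zebra finches (Taeniopygia guttata). The comparison used the 4 H3K9me3 libraries of day 67 after hatching, of 23 samples in the series, 20 of which had a list of enriched intervals (islands). The libraries were chosen by their labels for antibody, experience and age, with 2 replicates in each group. Tutored males were housed with 1 adult male and 1 adult female from day 21. Isolate males were housed from the same day with 2 adult females and no adult male. The labels gave day 67 for both groups and the design text of the series gave day 65. No genetic manipulation was named for either group. The question addressed was whether heterochromatin differed between young males reared with and without an adult male.

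H3K9me3 is the histone mark bound by heterochromatin protein 1 and is known for marking silent chromatin, including repeats and transposable elements. It is written by histone methyltransferases of the SUV39 and SETDB families and commonly extends over wide domains. H3K4me3, in contrast, marks active and poised promoters, H3K27me3 is the mark of Polycomb repression, and RNA polymerase II (Pol II) transcribes genes. The auditory forebrain of songbirds processes heard song, and juvenile male zebra finches learn their song from an adult male.

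Each island came with a start, an end and the number of ChIP reads in it, but none of the reads elsewhere. The number of reads in a region without an island was therefore unknown rather than zero. The total depth of the libraries was not given in the sources used here. No gene annotation of the genome build of the files was used, so regions are given by chromosome and coordinates, without gene names or sequence, and marker genes of the tissue could not be examined. Whether the 2 replicates of a group came from separate birds was not stated, so p-values speak of the spread among these 4 libraries alone, and that spread may be technical.

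The groups resembled each other more than the replicate numbers did. The lists held 19002 islands in Tutored replicate 1, 19518 in Isolate replicate 1, 24470 in Tutored replicate 2 and 23033 in Isolate replicate 2. Reads inside islands numbered 1551076, 1582441, 2070288 and 1869681 in the same order. Both measures were higher in replicate 2 of each group, and the Isolate library was above the Tutored library in replicate 1 and below it in replicate 2. Islands covered 81.2 Mb in Tutored replicate 1, 82.8 Mb in Isolate replicate 1, 60.5 Mb in Tutored replicate 2 and 60.8 Mb in Isolate replicate 2. The Isolate library thus covered 1.55 Mb more in replicate 1 and 0.359 Mb more in replicate 2, while the replicates of a group lay more than 20 Mb apart. An exact two-sided permutation test of covered length over the 4 libraries gave p = 0.667, and such a test of 2 libraries against 2 cannot go below 0.333.

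Islands were broad in replicate 1 and shorter in replicate 2. The median island length was 3600 bp in Tutored replicate 1, 3400 bp in Isolate replicate 1, 1800 bp in Tutored replicate 2 and 2000 bp in Isolate replicate 2. Islands of at least 10 kb numbered 882, 892, 430 and 440 in that order, an excess of 10 in Isolate at each replicate number. Those of at least 20 kb numbered 107, 120, 52 and 45, more in Isolate in replicate 1 and fewer in replicate 2. Islands shorter than 1 kb made up 1.36% and 1.44% of the replicate 1 lists, 17.9% of the Tutored replicate 2 list and 13.7% of the Isolate replicate 2 list. The density of reads inside islands was 19.1 reads per kb in both replicate 1 libraries, 34.2 in Tutored replicate 2 and 30.7 in Isolate replicate 2. Because the replicates of a group differed in this way, each comparison below was made within a replicate number first.

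**Figure D1:**
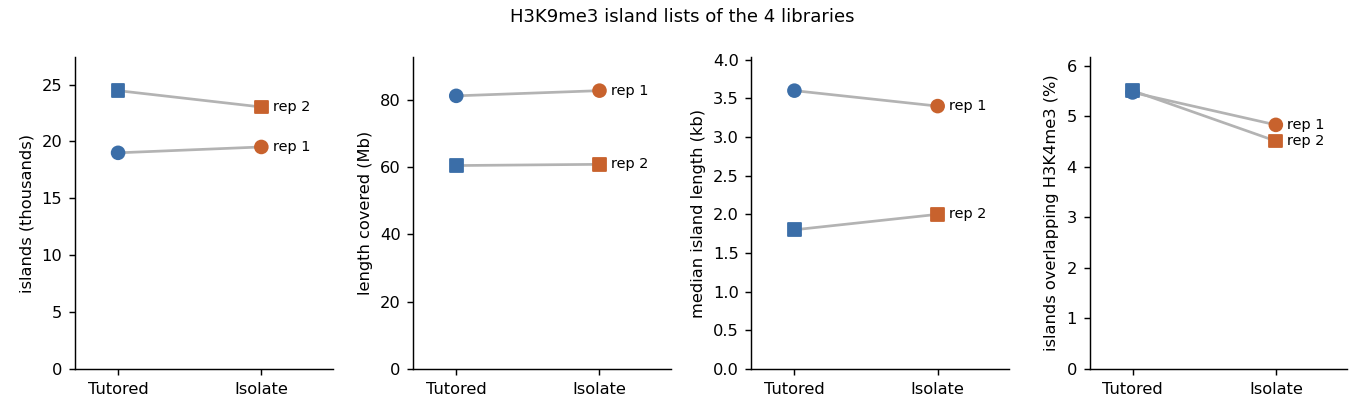
Number of H3K9me3 islands (in units of 1000), length covered by them in Mb, median island length in kb and percent of islands that overlap H3K4me3 (vertical axes, from 0) in the 4 libraries, with Tutored in blue, Isolate in orange, circles for replicate 1, squares for replicate 2 and lines joining libraries of the same replicate number. The replicate 1 libraries covered 81.2 and 82.8 Mb and the replicate 2 libraries 60.5 and 60.8 Mb, so the lines of the first 3 panels run nearly level while the replicate numbers lie apart, and in the last panel both Isolate points (4.83% and 4.51%) lie under both Tutored points (5.47% and 5.51%).

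The longest H3K9me3 domains were present in both groups. Islands of the 4 libraries were merged where they overlapped or touched, which gave 32033 regions over 132.8 Mb. All 13 regions of at least 50 kb were called in the 4 libraries, as were 1958 of the 2105 regions of 10 to 50 kb (93.0%). Of the 9207 regions shorter than 2 kb, 245 were called in all 4 (2.66%). Region length is the joined extent over the libraries, so regions with islands in more libraries tend to be longer. The longest region, chr1:97169801-97260600, was covered over 85.4 kb in Tutored replicate 1, 86.4 kb in Isolate replicate 1, 80.8 kb in Tutored replicate 2 and 81.8 kb in Isolate replicate 2. It held no H3K27me3 island in any day 67 library. The next longest, chrZ:72692001-72779000, was covered over 76.2 kb, 86.2 kb, 75.2 kb and 78.2 kb in the same order, and was 1 unbroken island in Isolate replicate 1, 5 islands in Tutored replicate 1 and 7 in each replicate 2 library. Its reads, scaled to the total over all islands of each library and given as CPM, were 1255, 1688, 1366 and 1440, higher in Isolate at both replicate numbers, with edgeR's quasi-likelihood test giving an adjusted p of 0.9999. The other long regions, chr4:14177001-14247600, chr3:109938401-110001400 and chrZ:65327401-65389600, differed by less than 0.1 on the log2 CPM scale at each replicate number. These 3 regions and the one on Z that precedes them carried H3K27me3 in all 4 H3K27me3 libraries of day 67.

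Regions called in 1 group and not in the other were short and held few reads. In replicate 1, 22362 regions were called in either library and 12191 in both (54.5%), while 5330 were called in Isolate alone (23.8%) and 4841 in Tutored alone (21.6%). In replicate 2, 25934 were called in either library and 14282 in both (55.1%), while 5178 were called in Isolate alone (20%) and 6474 in Tutored alone (25%). The group with more such regions was the one with more islands, Isolate in replicate 1 and Tutored in replicate 2, and the part of island number in this was not tested. Regions called in 1 library of a replicate held a median of 43 reads in both groups of replicate 1, and of 35 in Isolate and 34 in Tutored in replicate 2. Regions called in both libraries held medians of 70 and 72 reads in replicate 1 and of 68.5 and 67 in replicate 2, for Tutored and Isolate.

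Few of these differences recurred. Both Isolate libraries and neither Tutored library had an island in 682 regions (2.13% of all merged regions), and the reverse held in 736 (2.3%). Regions in which the replicates went opposite ways numbered 735 for Isolate replicate 1 with Tutored replicate 2 and 532 for Tutored replicate 1 with Isolate replicate 2. The counts of regions that followed the group were thus about as large as those of regions that did not. Regions that followed the group had a median length of 3200 bp in each direction, and the longest was 9200 bp for Isolate and 9600 bp for Tutored. No region of 10 kb or more was thus called by group alone, although joining islands over libraries itself lengthens regions called in more libraries.

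The clearest regularity in the regions called by group was where they lay relative to promoter chromatin. Of the regions called in both Tutored libraries alone, 57 of 736 overlapped an H3K4me3 island of any of the 4 day 67 libraries of that mark, 2 from each group (7.74%, exact 95% binomial interval 5.92 to 9.92). Of those called in both Isolate libraries alone, 11 of 682 did (1.61%, 0.808 to 2.87). The share among regions called in all 4 libraries was 7.81%, and among all merged regions 5.41%. The Isolate share was thus the low one, and the Tutored share lay beside that of the shared regions. The same order held within each replicate number, with 5.12% of Tutored-alone and 3.26% of Isolate-alone regions in replicate 1, and 6.12% and 2.20% in replicate 2. The sets of each replicate number include the 736 and 682 regions above, so their order is not separate support. These intervals cover counting error only, since regions of 1 library are not independent samples.

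Counted the other way round, the balance among H3K4me3-bearing regions was towards Tutored at both replicate numbers. Among 1277 regions with H3K4me3 called in either replicate 1 library, 174 were in Isolate alone (13.6%) and 248 in Tutored alone (19.4%). Among 1498 such regions in replicate 2, 114 were in Isolate alone (7.61%) and 396 in Tutored alone (26.4%). In regions without H3K4me3 the shares were 24.5% for Isolate and 21.8% for Tutored in replicate 1, and 20.7% and 24.9% in replicate 2. In replicate 1 the Isolate list was thus the larger one outside H3K4me3 and the smaller one inside it. These counts include the regions that followed the group at both replicate numbers.

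Whole lists, which include these regions, showed the same order. An H3K4me3 island was overlapped by 5.47% of H3K9me3 islands in Tutored replicate 1 and 5.51% in Tutored replicate 2, against 4.83% and 4.51% in Isolate replicates 1 and 2. The groups did not overlap, and the exact two-sided permutation p was 0.333, the smallest this design allows. The length of H3K9me3 inside H3K4me3 islands was 2102 kb and 2316 kb in Tutored replicates 1 and 2, and 1933 kb and 1798 kb in Isolate replicates 1 and 2. Again both Tutored libraries were above both Isolate libraries. As a share of H3K9me3 length, this overlap was 2.59% and 3.83% in Tutored and 2.34% and 2.96% in Isolate replicates 1 and 2. By that measure the groups overlapped, and the exact two-sided permutation p was 0.667. Other measures of the lists also reached 0.333 by this test. They were the longest island, the shares of islands that overlapped Pol II or day 32 islands, and the share of islands on each class of chromosome described below. Separation of the groups was thus not particular to H3K4me3, and at this p it is weak evidence of a group difference.

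Overlap with Pol II followed the same order. Pol II islands of any day 67 library overlapped 68 of the 736 Tutored-alone regions (9.24%, exact 95% interval 7.25 to 11.6) and 25 of the 682 Isolate-alone regions (3.67%, 2.39 to 5.36), against 8.14% of all merged regions. Regions with Pol II in all 4 Pol II libraries numbered 15 in the Tutored-alone set (2.04%) and 0 in the Isolate-alone set, against 1.16% of all merged regions and 1.56% of regions called in all 4, so these counts are small. H3K27me3, by contrast, overlapped similar shares, 57.5% (53.8 to 61.1) of Tutored-alone and 54.5% (50.7 to 58.3) of Isolate-alone regions, near the 58.1% of all merged regions and below the 70.2% of regions called in all 4.

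Regions called by group were also compared with the single H3K9me3 library of day 32, taken from birds in the home aviary. A day 32 island was present at 227 of the Tutored-alone regions (30.8%, 27.5 to 34.3) and at 124 of the Isolate-alone regions (18.2%, 15.4 to 21.3), against 34.8% of all merged regions and 60.6% of regions called in all 4 libraries. Within replicate numbers the shares were 25.9% and 24.1% in replicate 1 and 28.5% and 15.1% in replicate 2, for Tutored and Isolate. The difference was therefore small in replicate 1. The sets of each replicate number include the regions called by group. Most of the H3K4me3-bearing regions had a day 32 island, 51 of 57 in the Tutored set and 10 of 11 in the Isolate set. This was usual for the kind, since 673 of 701 such regions called in all 4 libraries had one (96.0%). Without H3K4me3 the shares at day 32 were 25.9% for Tutored and 17.0% for Isolate, against 57.6% of regions called in all 4.

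**Figure D2:**
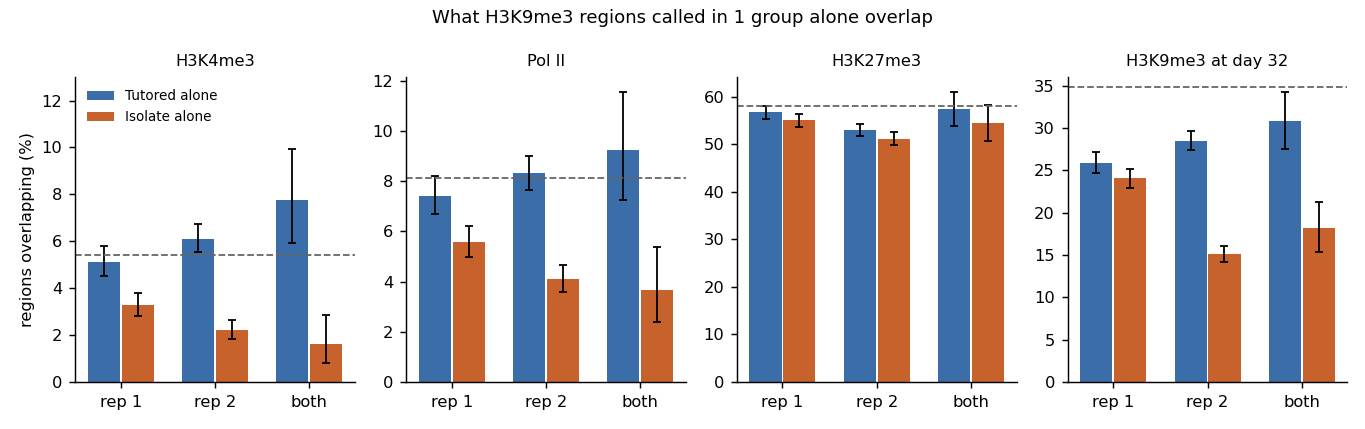
Percent of H3K9me3 regions called in Tutored alone (blue bars) or Isolate alone (orange bars), in replicate 1, in replicate 2 or in both, that overlap islands of H3K4me3, Pol II, H3K27me3 or day 32 H3K9me3 (vertical axes from 0, scaled separately for each panel). Error bars are exact 95% binomial intervals, which cover counting error only, and the dashed line is the value over all merged regions. H3K4me3 overlapped 7.74% of regions in both Tutored libraries alone and 1.61% in both Isolate libraries alone, and the Tutored bar is the higher one at each replicate number. The sets of each replicate number include the regions called in both.

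The H3K4me3 shares were also compared within classes of chromosome. Chromosomes were classed by length as large autosomes (at least 50 Mb, 6 chromosomes), Z, middle autosomes (8) and small autosomes (under 20 Mb, 20), and small chromosomes of birds are dense in genes. Tutored-alone regions numbered 439 on large autosomes, 71 on Z, 158 on middle and 68 on small chromosomes, and Isolate-alone regions 458, 67, 106 and 51. These were 59.6%, 9.65%, 21.5% and 9.24% of the Tutored-alone and 67.2%, 9.82%, 15.5% and 7.48% of the Isolate-alone regions, against 61.7%, 11.3%, 16.6% and 10.4% of all merged regions. Within large autosomes, 5.69% of Tutored-alone and 1.31% of Isolate-alone regions overlapped H3K4me3. The shares were 5.63% and 2.99% on Z, 10.1% and 0.943% on middle chromosomes, and 17.6% and 3.92% on small chromosomes. Among regions called in all 4 libraries they were 6.27% on large autosomes, 5.79% on Z, 10.97% on middle and 13.7% on small chromosomes. The Tutored share was the higher one in each class, although the Isolate sets held between 1 and 6 such regions per class.

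Regions of 1 group sometimes lay side by side. Another region called by group alone lay within 50 kb of 144 Isolate-alone regions, and the nearest was of the same group in 77 of them (53.5%). For Tutored it was 96 of 166 (57.8%). The shares of the 2 kinds in the pool were 48.1% and 51.9%, so the excess over the pool was 5 to 6 percentage points. The series lists a single day 67 input for replicate 2, described as pooled, so input counts by group compare islands and not separate inputs. In replicate 2, whose lists give input reads per island, the median input density was 15.0 reads per kb in Tutored-alone and 12.8 in Isolate-alone regions. In the regions called in all 4 it was 14.5 for Tutored and 14.3 for Isolate. ChIP reads were 26.6 and 24.0 per kb in the group-alone regions and 30.0 and 27.9 in the shared regions. The part of the input density in the differences was not tested.

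The regions of 1 group with the most reads were between 5.8 and 9.2 kb long. In Isolate, chr9:15833401-15840000 held 96 reads in replicate 1 and 137 in replicate 2. Input reads in its replicate 2 island numbered 119, beside a median ChIP to input ratio of 1.85 in Isolate-alone regions. On the Z chromosome, chrZ:26663201-26669400 held 103 and 105 reads, with no H3K4me3, H3K27me3, Pol II or day 32 H3K9me3 island. The other 3 regions of this set, chr1:96551801-96559800, chr17:2687601-2695000 and chr24:2365801-2371600, held 88 to 120 reads in each Isolate library, and neither Tutored library had an island in them. None of these 5 Isolate regions overlapped H3K4me3, and 3 of the 5 had H3K27me3 in all 4 libraries of that mark and an island at day 32. Over all 682 Isolate-alone regions the shares with H3K4me3, H3K27me3 in all 4 and a day 32 island were 1.61%, 32.4% and 18.2%.

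In Tutored, chr9:6017801-6025400 held 107 reads in replicate 1 and 180 in replicate 2. Its replicate 2 island held as many input reads, 180, while the median ChIP to input ratio was 1.79 in Tutored-alone regions. The region chr24:1068001-1077200 held 98 and 149 reads, and chr6:2418601-2424400 held 92 and 115 and overlapped H3K4me3 in all 4 H3K4me3 libraries. The remaining 2, chr14:12499401-12508000 and chr1A:3578801-3586800, held 89 to 111 reads in each Tutored library, and neither Isolate library had an island there. Of the 5 Tutored regions, 3 overlapped H3K4me3 in at least 1 library, 4 carried H3K27me3 in all 4 and all 5 had a day 32 island. Over all 736 Tutored-alone regions these shares were 7.74%, 37.6% and 30.8%. The 5 were chosen for their reads and are longer than the median of 3200 bp.

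Read counts were then compared in the 8975 regions called in all 4 libraries (28.0% of merged regions), which held between 72.2% and 75.3% of the reads in islands of each library. The median log2 ratio of Isolate to Tutored CPM was -0.003 in replicate 1 and 0.07 in replicate 2. Counts were higher in Isolate at both replicate numbers in 2549 regions (28.4%), lower at both in 1992 (22.2%) and of opposite sign in 4434. A difference of at least 2-fold recurred in 31 regions higher in Isolate (0.345%) and 15 lower (0.167%), and 40 regions differed 2-fold in opposite directions. Across the 8975 regions, which are not independent, the log2 ratios of replicates 1 and 2 correlated at r = 0.012. A large ratio at 1 replicate number thus said little about the other.

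edgeR's quasi-likelihood test, with group as the only term, called 0 of 8975 shared regions (0%) at a p of 0.05 after Benjamini-Hochberg adjustment. At an unadjusted p under 0.05 it gave 129 regions (1.44%), 65 higher (0.724%) and 64 lower (0.713%) in Isolate. DESeq2 also called 0, with 107 at an unadjusted p under 0.05. With the replicate number as a block the count remained 0, with 449 at an unadjusted p under 0.05 (5%) and a lowest adjusted p of 0.942. With 2 libraries in each group, a count of 0 does not show that the groups were alike.

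**Figure D3:**
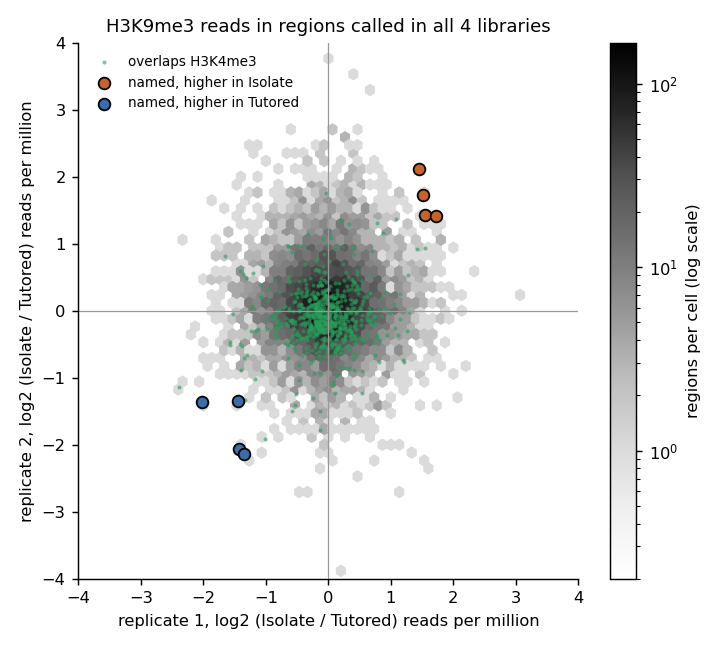
Log2 ratio of Isolate to Tutored CPM in replicate 1 (horizontal) and replicate 2 (vertical) for the 8975 regions called in all 4 libraries, with darker cells holding more regions on a log scale, regions that overlap H3K4me3 in green and the regions named by reads outlined. The cloud is round, with r = 0.012 between the replicate numbers, and the named regions stand at its upper right and lower left edges.

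Small shifts separated the kinds of shared region. In the 701 shared regions that overlapped H3K4me3, the median log2 ratio of Isolate to Tutored CPM was -0.06 in replicate 1 and -0.10 in replicate 2, against 0.00 and 0.09 in the 8274 without H3K4me3. Of the 701, 254 were lower in Isolate at both replicate numbers, 110 higher at both and 337 of opposite sign. Without H3K4me3, 1738 were lower at both and 2439 higher at both. With edgeR's replicate block, 42 of the 701 had an unadjusted p under 0.05 with lower and 7 with higher counts in Isolate, beside 219 lower (2.44%) and 230 higher (2.56%) of all shared regions, and none passed the adjusted threshold. Without the block, 15 of the 701 had an unadjusted p under 0.05, beside 129 (1.44%) of all shared regions. The H3K4me3 regions thus leaned towards Tutored in read counts, in the same direction as in island presence, by less than 10% in the median region. Their covered length had a median log2 ratio of 0 at both replicate numbers, with 130 longer and 165 shorter in Isolate at both.

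The shift in CPM was larger on small chromosomes. In the 140 shared regions with H3K4me3 on small chromosomes, the median log2 ratio was -0.10 in replicate 1 and -0.26 in replicate 2, with 72 lower and 14 higher in Isolate at both. In the 561 with H3K4me3 elsewhere it was -0.05 and -0.08, with 182 lower and 96 higher. In the 885 regions of small chromosomes without H3K4me3 it was -0.03 and -0.06, with 275 lower and 185 higher. All 3 sets lay below the medians over all shared regions at both replicate numbers. Per kb covered by islands, the median log2 difference of the 701 H3K4me3 regions was -0.04 at both replicate numbers, against -0.01 and 0.04 over all shared regions, with 216 lower and 141 higher at both.

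Shared regions that had no island at day 32 leaned the other way, in replicate 2. Among these 3533 regions, the median log2 ratio of Isolate to Tutored CPM was 0.00 in replicate 1 and 0.20 in replicate 2, with 1193 higher and 579 lower in Isolate at both. In the 5442 regions called at day 32 it was -0.01 and -0.00, with 1356 higher and 1413 lower. The replicate 1 median did not differ between these kinds by more than 0.01. On Z, the median ratio over 1348 shared regions was 0.02 and 0.07, close to the values over all shared regions.

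Among shared regions with a mean of at least 50 reads, the largest recurring ratio towards Isolate was at chr8:23132601-23140800. It held 41 reads in Tutored replicate 1, 119 in Isolate replicate 1, 54 in Tutored replicate 2 and 162 in Isolate replicate 2. Both Isolate libraries were above both Tutored libraries, with log2 ratios of 1.51 and 1.73. The edgeR log2 difference was 1.59, with an adjusted p of 0.9999 by the quasi-likelihood test. An SE of 0.38 was calculated back from this difference and the F statistic of the test. Islands covered 2.0 kb and 2.2 kb of the region in Tutored replicates 1 and 2 and 7.0 kb and 7.8 kb in Isolate replicates 1 and 2, so that counts followed covered length. At chr3:110541401-110548400 the reads were 29, 81, 32 and 125 in the same order of libraries, and at chr9:13765801-13772400 they were 31, 92, 32 and 78. The fourth, chr17:10614401-10620600, held 26, 88, 51 and 123 reads. In each of these the groups did not overlap, which the choice by ratios of 1 sign favours. The share of all shared regions without such overlap is not given here. All 4 carried H3K27me3 in all libraries of that mark and no H3K4me3. Over all 8975 shared regions, 50.9% had H3K27me3 in all 4 libraries and 92.2% had no H3K4me3.

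The largest recurring ratios towards Tutored included chr15:12617201-12627600, with 119 reads in Tutored replicate 1, 45 in Isolate replicate 1, 235 in Tutored replicate 2 and 51 in Isolate replicate 2. Its log2 ratios were -1.43 and -2.06, and it overlapped H3K4me3 in all 4 libraries of that mark. At chr12:4703801-4719000 the reads were 128, 51, 400 and 82, and Pol II islands were present in all 4 Pol II libraries. In replicate 2 its islands held 417 reads of the single pooled input over 15.2 kb in Tutored and 64 over 3.4 kb in Isolate. The median ChIP to input ratio over shared regions was 2.05 in Tutored and 1.94 in Isolate replicate 2. At chr3:110453801-110465000 the ChIP reads were 136, 34, 125 and 44, and this region carried no H3K4me3, H3K27me3, Pol II or day 32 island. The fourth, chr3:8417401-8423600, held 101, 38, 130 and 46 reads. Both Tutored libraries were above both Isolate libraries in each, which their choice favours. As above, the share of all shared regions with such separation is not given here. The adjusted p was 0.9999 by edgeR and 0.942 with the replicate block in all of them. With covered length as an offset, the edgeR log2 differences of these regions and the 4 higher in Isolate lay between -0.74 and 0.19. The chromosome 3 regions at 110453801 and 110541401 lay 76.4 kb apart and differed in opposite directions.

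Domain length was compared as the base pairs covered by islands in each shared region. The median was 4600 bp in both replicate 1 libraries, 3200 bp in Tutored replicate 2 and 3400 bp in Isolate replicate 2. A shared region was a single island in 83.4% and 82.9% of cases in Tutored and Isolate replicate 1, and in 72.9% and 73.4% in replicate 2. Regions covered over at least 20 kb numbered 208 and 212 in replicate 1 and 148 and 157 in replicate 2, for Tutored and Isolate. Breaking of domains into islands thus differed between replicate numbers by about 10 percentage points and between groups by less than 1.

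Covered length was greater in Isolate at both replicate numbers in 2077 shared regions (23.1%), greater in Tutored at both in 1732 (19.3%) and of opposite sign in 3680. Differences of at least 2-fold recurred in 80 regions towards Isolate (0.891%) and 56 towards Tutored (0.624%), beside 153 in opposite directions, and r between the replicate numbers was 0.004. limma on log2 covered length called 0 of 8975 regions at an adjusted p of 0.05, with 133 at an unadjusted p under 0.05 (1.48%), 74 longer in Isolate (0.825%) and 59 shorter (0.657%). With the replicate block it called 0, with 296 at an unadjusted p under 0.05 (3.3%), 175 longer in Isolate (1.95%) and 121 shorter (1.35%). Of these, 13 longer and 14 shorter regions were among the 701 that overlapped H3K4me3. Within a replicate number the log2 ratios of reads and of covered length correlated across regions at r = 0.881 and 0.879, so that lengths and counts are largely the same information. Per covered kb, 3 of the 8975 regions differed at least 2-fold in the same direction at both replicate numbers.

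The longest recurring extensions in Isolate were of 5.6 kb or more at each replicate number. At chr3:65712201-65724800 islands covered 4.0 kb in Tutored replicate 1, 10.6 kb in Isolate replicate 1, 4.6 kb in Tutored replicate 2 and 11.2 kb in Isolate replicate 2. The excess was 6.6 kb at both replicate numbers. At chr11:8362201-8397200 the covered lengths were 27.2, 33.4, 20.8 and 29.4 kb in the same order, while its reads were 754, 753, 1006 and 990. There the domain was longer in Isolate with almost the same number of unscaled reads. Its CPM was 486.1 in Tutored and 475.8 in Isolate replicate 1, and 485.9 and 529.5 in replicate 2. At chr2:147116001-147143400 the covered lengths were 19.2, 26.2, 4.6 and 10.4 kb, and the groups overlapped because the replicate numbers differed more than the groups. At chr3:30856201-30876800 they were 7.0, 12.6, 1.2 and 20 kb, and in replicate 2 its reads were 36 in Tutored and 388 in Isolate. Reads of the single pooled input in these replicate 2 islands numbered 20 over 1.2 kb in Tutored and 399 over 20 kb in Isolate.

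In Tutored, the longest recurring extensions included chr11:7379001-7395600, with 15.2 kb in Tutored replicate 1, 5.8 kb in Isolate replicate 1, 10.6 kb in Tutored replicate 2 and 3.0 kb in Isolate replicate 2. This region overlapped H3K4me3 in all 4 libraries of that mark. At chr24:1078201-1093800 the lengths were 13 kb, 1.4, 11.8 and 5.4 kb, at chr5:38873801-38886400 they were 11.6, 3.4, 10.6 and 4.4 kb, and at chr26:4881201-4897800 they were 14.8, 6.2, 11.8 and 5.8 kb. The groups did not overlap at any of the 4, which their choice by recurring differences favours. The share of all shared regions without such overlap in covered length is not given here. By limma the adjusted p was 1 for each of the 8 regions named by length, and 0.915 with the replicate block.

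The chromosome 24 region lies beside a region already described. It starts 1 kb after the Tutored-alone region chr24:1068001-1077200, and together they span 25.8 kb. At day 32 a single H3K9me3 island with 1004 reads covered both, from 1067601 to 1094400 (26.8 kb). The stretch was thus a single island in the day 32 list, partly covered in both Tutored libraries and least covered in both Isolate libraries at day 67. Both regions were chosen for differing towards Tutored. Breaking of domains into islands also differed between the lists of a group, and its part in the difference from day 32 was not tested.

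**Figure D4:**
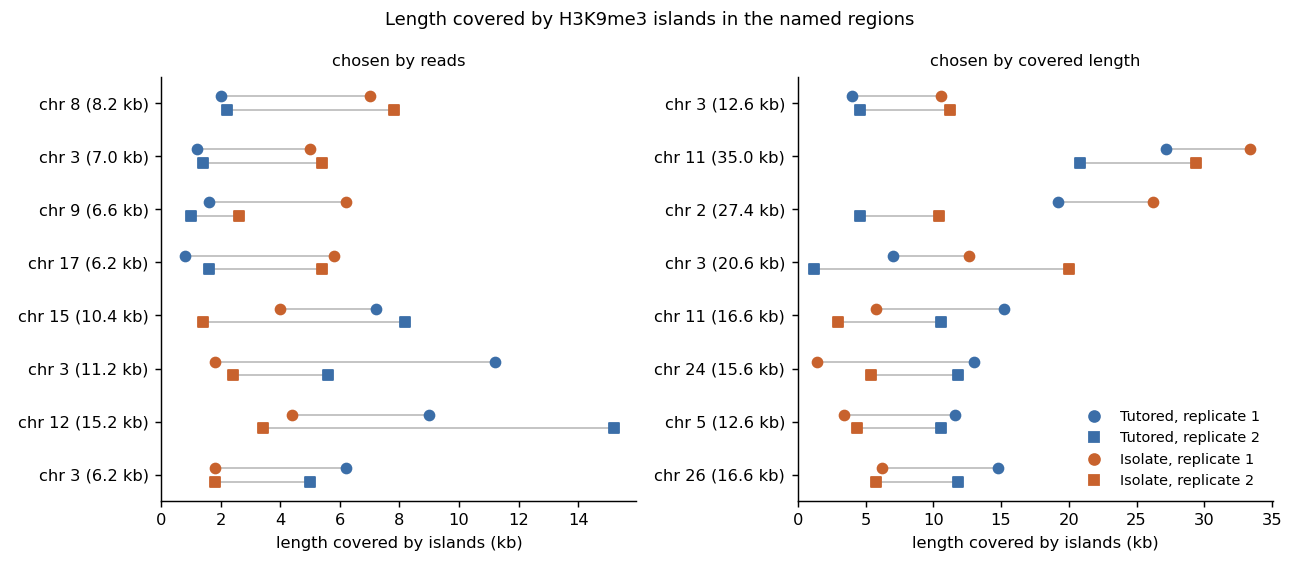
Length covered by H3K9me3 islands in kb (horizontal, from 0) in each library for the 8 shared regions named by reads (left) and the 8 named by covered length (right), with circles for replicate 1, squares for replicate 2 and lines joining Tutored (blue) and Isolate (orange) of the same replicate number. On chromosome 8, Tutored libraries covered 2.0 and 2.2 kb and Isolate libraries 7.0 and 7.8 kb, while on chromosome 2 the replicate numbers lie farther apart than the groups.

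Across the 31 chromosomes of at least 1 Mb, the ratio of covered length, Isolate to Tutored, ran from 0.866 to 1.16 in replicate 1 and from 0.768 to 1.20 in replicate 2. It was above 1 at both replicate numbers on 5 chromosomes, below 1 at both on 10 and of opposite direction on 16. On Z, islands covered 15.3% of the chromosome in Tutored replicate 1, 16.2% in Isolate replicate 1, 11.2% in Tutored replicate 2 and 11.6% in Isolate replicate 2, ratios of 1.06 and 1.04. On chromosome 2 the ratio was 1.06 at both replicate numbers. On chromosome 26, covered over 10.3%, 8.93%, 9.82% and 7.61% in the same order, it was 0.866 and 0.774, and both Isolate libraries were below both Tutored libraries. Both Isolate libraries were also the lower ones on chromosomes 21, 24 and 28.

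On small chromosomes the groups differed in cover in replicate 2 and hardly in replicate 1. Islands covered 6.54% of their length in Tutored replicate 1, 6.52% in Isolate replicate 1, 6.37% in Tutored replicate 2 and 5.43% in Isolate replicate 2. Isolate replicate 2 was the low library, and the replicate 1 libraries did not differ by more than 0.1 percentage points. Of the 16 small chromosomes of at least 1 Mb, 15 had a ratio under 1 in replicate 2 and 10 in replicate 1, and 9 at both. The 6 large autosomes had ratios of 1.02 to 1.09 in replicate 2 and of 0.969 to 1.06 in replicate 1. A lower cover of small chromosomes in Isolate therefore rested mainly on replicate 2.

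**Figure D5:**
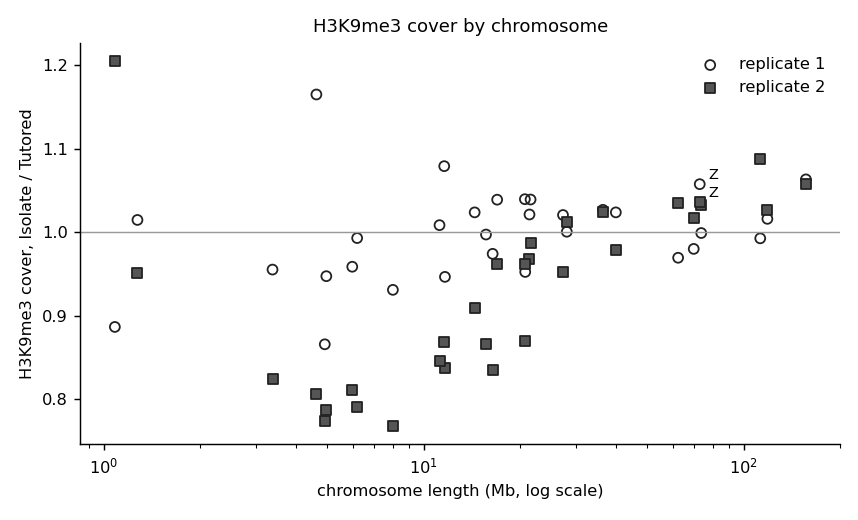
Ratio of the length covered by H3K9me3 islands, Isolate to Tutored, in replicate 1 (open circles) and replicate 2 (filled squares) for each of the 31 chromosomes of at least 1 Mb (vertical axis), against chromosome length in Mb on a log scale (horizontal axis), with a line at a ratio of 1 and Z marked. Ratios run from 0.866 to 1.16 in replicate 1 and from 0.768 to 1.20 in replicate 2, and 15 of the 16 small chromosomes lie under 1 in replicate 2.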

How the data were processed

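The deposited values used were counts of ChIP reads per island in 4 H3K9me3 lists, and counts of input reads in the 2 replicate 2 lists, as the authors deposited them. BWA 0.6.1, MACS and SICER 1.1 are named in the submitters' processing notes, which do not say what each was used for. By their deposited names, the H3K9me3 lists were made per library with SICER settings for window (200 bp), gap (600 bp) and false discovery rate (1E-5), possibly after scaling libraries to equal read numbers. Coordinates are those of the deposited lists, written 1-based, on a genome build that was not given in the sources used. The fold, p and q columns of the replicate 2 lists were not used.

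Overlapping or touching islands of the 4 libraries were joined into regions, and a region counted as called with an overlap of at least 1 bp. H3K4me3, H3K27me3 and Pol II islands of day 67 and the day 32 H3K9me3 island list served as annotation. The highest island end on a chromosome stood for its length. Reads were tested by the robust quasi-likelihood method of edgeR 4.0.16 with TMM factors, and log2 covered length with limma 3.58.1 (trend, robust) in R 4.3.3, with DESeq2 1.42.0 as an alternative, on regions called in all 4 libraries, and p-values were adjusted over all of them. The main fits held group as the only term, and the replicate number entered as a block in an alternative. Both tests were tested on simulated data. CPM values use the reads in all islands of a library.

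Replicate numbers were taken to pair the libraries, because the labels call the day 67 input pooled for each number, in the title for replicate 1 and in the description for replicate 2. Their deviations from the group means correlated at r = 0.424 over 8975 regions. The groups, regions and lists were chosen with earlier results of these data known. The named regions were the 5 longest called in all 4 libraries, in each direction the 5 called by group with the highest lower CPM, the 4 with the largest lower log2 CPM ratio of 1 sign (mean of at least 50 reads) and the 4 with the largest lower difference in covered length, and any that passed a test, of which there were 0.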

Additional observations from a re-analysis of the deposited data

How the results depend on the processing

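The tests of reads and of covered length gave 0 calls under each alternative run. For reads these were RLE size factors, all reads in islands as library size, DESeq2, regions called in at least 2 libraries, a mean of at least 50 reads, covered length as an offset, the replicate block (0 calls, 449 at an unadjusted p under 0.05) and each library left out (172 to 498). For covered length they were the span, a mean of at least 5 kb, equal numbers of islands, the replicate block (0 calls, 296 unadjusted) and each library left out (415 to 619). With a library left out, the lone one was taken to vary as the other group did.

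With islands of at least 50 reads there were 17812 merged regions in place of 32033. Of these, 401 were called in both Isolate libraries alone and 411 in both Tutored libraries alone, against 682 and 736 of the 32033. Within 1 replicate number, without that read filter, the counts were 5178 to 5330 for Isolate and 4841 to 6474 for Tutored. The share overlapping H3K4me3, Tutored minus Isolate, was 6.13 percentage points, 1.86 to 3.92 within 1 replicate number, 3.74 with H3K4me3 islands required in all 4 libraries and 4.89 to 7.35 under the other 4 alternatives, all chosen after seeing the data. Mean total cover stayed higher in Isolate, by 0.359 to 1.55 Mb, although with equal numbers of islands the difference within replicate 1 was -1.02 Mb.

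Of the values of named regions, 137 kept their direction and 7 reversed. These regions were chosen for differing the same way at both replicate numbers, which makes a reversal unlikely under most alternatives. The counts are therefore no check of the differences. With covered length as an offset, the log2 difference was -0.74 on chromosome 17 at 10614401, 0.19 on chromosome 3 at 8417401, 0.18 at 110453801 and -0.25 at 110541401, -0.23 on chromosome 8 at 23132601 and -0.19 on chromosome 9 at 13765801, since counts followed length; it kept its sign but shrank to -0.0015 on chromosome 15 at 12617201 and -0.16 on chromosome 12 at 4703801. Covered length on chromosome 2 at 147116001 ran from -0.22 without Tutored replicate 2 to 1.84 without Tutored replicate 1. Regions of 1 group alone held medians of 34 to 43 reads per replicate number and reads outside islands were unknown, which limits what a missing island shows.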

Other observations

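Covered length was also summed in bins of 1000 kb, a choice made after seeing the data, and no test was run. Of 1003 full bins, 260 had more H3K9me3 cover in Isolate at both replicate numbers, 227 had less at both and 484 went opposite ways. A difference of at least 20 kb recurred in 4 bins higher in Isolate and 3 lower, and went opposite ways in 19. The largest recurring excess in Isolate was on chromosome 2 from 87000001 to 88000000, where islands covered 208.8 kb in Tutored replicate 1, 260.6 kb in Isolate replicate 1, 96.6 kb in Tutored replicate 2 and 134.4 kb in Isolate replicate 2. The replicate numbers differed there by more than the groups, and the day 32 library covered 75.2 kb. In each of the 4 bins higher in Isolate, the day 32 cover was below that of all 4 libraries.

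The largest recurring excess in Tutored was on chromosome 26 from 1000001 to 2000000, covered over 148.0 kb, 118.4 kb, 152.4 kb and 113.8 kb in the same order, and over 333.4 kb in the day 32 library. Both Tutored libraries were above both Isolate libraries, which the choice by recurring differences favours, and the day 32 library was above all 4. The share of all bins with such separation is not given here. The next, chromosome 9 from 16000001 to 17000000, was covered over 367.0 kb in Tutored replicate 1, 343.2 kb in Isolate replicate 1, 313.0 kb in Tutored replicate 2 and 269.2 kb in Isolate replicate 2, and over 196.0 kb at day 32. There the groups overlapped and the day 32 library was below all 4. Chromosome 11 from 11000001 to 12000000 had the order of the chromosome 26 bin, with 141.6 kb and 144.4 kb in Tutored, 118.0 kb and 116.2 kb in Isolate and 478.4 kb at day 32.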
